A study of Hordeum vulgare with 64 samples.

Results

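Leaves of waterlogged barley (Hordeum vulgare) were followed over time in 16 of the 64 libraries of the series, chosen by their labels as leaf samples of the waterlogging experiment. NasoNijo (NN), a waterlogging-sensitive variety, and TX9425 (TX), a tolerant one, were grown together in pots to the 3-leaf stage. They were then flooded with tap water to 1 cm above the soil, and leaves were taken at 1 h, 72 h and 2 w. Control leaves of each variety were labelled 0 h, and each of the 8 groups held 2 libraries. No flooded leaf had a control of its own age or hour, so the time spent in water, plant age and hour of sampling cannot be told apart. The files name no separate plants or pools, so p-values measure only the spread of these libraries, and that spread may be technical. In bulk tissue, fewer cells of a type and less RNA per cell cannot be told apart.

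Flooding the soil cuts off gas exchange around the roots, which lose oxygen while the leaves stay in air. Leaves respond at a distance: roots short of oxygen send less nitrogen and altered amounts of hormones such as ethylene precursors and abscisic acid to the shoot, stomata close, and older leaves later yellow. Leaf transcripts also follow growth and the daily rhythm of the plant.

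Values were FPKM (fragments per kilobase of transcript, scaled by the mapped reads of the library), here rescaled so that all rows with HORVU identifiers, the barley gene models, summed to the same total in every library. The files and the RefSeq table used here do not pair HORVU identifiers with gene names, 0 of them matched, and so no roles or sequences are given. Genes are described as sets and by a few identifiers. A change was called shared when limma gave an adjusted p below 0.05 for the mean of both varieties and the change went beyond 1 on the log2(FPKM + 1) scale in NN and in TX, in the same direction. NN and TX had separate control libraries, and 20726 genes were tested. The varieties shared a pot in the study, so NN and TX libraries of a time may share pot, flooding and harvest. Agreement between the varieties is thus not shown to be an independent repeat.

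The libraries carried their labels but were uneven. The 13 genes seen in every salt-experiment leaf and in no salt-experiment root had medians of 24.5 to 91.7 FPKM, and the 5 genes with the reverse pattern had medians of 0 to 0.778 FPKM. Of these 5, at most 1 reached 0.5 FPKM in any leaf library except replicate 1 of NN at 2 w, where 3 did. Genes seen in roots of TX alone were found in TX leaves (22 to 28 of 32 at 0.5 FPKM or more) and not in NN leaves (1 of 32), and the 40 genes of NN roots alone showed the reverse. The summed FPKM was 408505 to 596521, replicates correlated at r = 0.859 to 0.973 across genes, and depth ran from 0.297 to 1.5 times that of replicate 1 of the NN controls, by the step size of low values. Rows with ENSRNA identifiers, left out here, took 0.61% to 3.14% of the FPKM in controls and up to 36.1% after flooding. A set of 49 genes seen only in these leaves reached 1 FPKM in 3 to 42 members per library, and in 7 libraries over 50% of the set did. These were replicate 1 of the NN controls, of NN at 1 h, of NN at 2 w and of TX at 72 h, replicate 2 of NN at 72 h and both replicates of TX at 1 h. Of these 49 genes, 4 were shared calls at 1 h, 3 at 72 h and 2 at 2 w, all higher, against 0.656%, 1.07% and 1.31% of all genes tested. The median change of the 49 was 1.79, 1.31 and 0.44 at the 3 times, against -0.05, -0.06 and 0.06 for all genes. The 49 were chosen on these same leaf libraries, with a minimum of 10 FPKM there and a maximum of 0.5 FPKM elsewhere. Since 12 of the leaf libraries were flooded and 4 were controls, the choice itself favoured higher values after flooding. The calls and median changes of this set therefore cannot show a response to flooding.

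The first question was what happened within 1 h of flooding. More genes fell than rose: 824 were lower (3.98% of those tested) and 136 higher (0.656%). The median lower gene dropped by 1.76 on the log2 scale, or 3.38-fold on FPKM + 1, and 95 of the lower genes fell by more than 3. The 824 lower genes were well expressed in controls, at a median of 19.6 FPKM in leaves and 24.9 FPKM in roots, against 3.80 and 4.74 FPKM for all tested genes, and 71.0% of them exceeded 10 FPKM in control leaves. Their leaf level was partly fixed by the choice of the set, since a gene near 0 FPKM in control leaves could not fall by more than 1. The root libraries took no part in that choice. The median leaf level of the 824 genes was 16.1 and 21.7 FPKM in the NN controls, 19.4 and 18.9 in the TX controls, 4.27 and 2.55 in NN at 1 h, and 4.53 and 3.54 in TX at 1 h. All 4 flooded libraries lay below all 4 controls in this set median, as they had to, since these libraries chose the set. For 808 of the 824 genes the single values did not overlap either, as they did not for 15.3% of all tested genes in this direction. The 136 higher genes rose by a median of 1.54, and 38.2% of them were below 0.5 FPKM in control roots, against 18.1% of all genes tested.

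Among genes without overlap, HORVU6Hr1G093520 and HORVU6Hr1G082360 had the deepest falls in both varieties. HORVU6Hr1G093520 stood at 213 and 236 FPKM in NN controls and 368 and 99.1 in TX controls, and at 1.36 and 0.549 in NN and 0.730 and 0.528 in TX after 1 h. HORVU6Hr1G082360 stood at 244 and 135 in NN controls and 317 and 112 in TX controls, and at 1.95 and 1.18 in NN and 1.21 and 1.15 in TX after 1 h. The highest flooded values were 1.36 and 1.95, and the lowest controls 99.1 and 112. In limma the mean changes of log2(FPKM + 1) were -6.88 (SE 0.51, adjusted p = 0.000175) for HORVU6Hr1G093520 and -6.31 (SE 0.36, adjusted p = 8.59e-05) for HORVU6Hr1G082360. In control leaves of the salt experiment, normalized apart, HORVU6Hr1G093520 stood at 1.00 to 5.45 FPKM and HORVU6Hr1G082360 at 0.654 to 7.94. After 1 h of salt limma called HORVU6Hr1G093520 lower (-1.60, adjusted p = 0.0161). It did not call HORVU6Hr1G082360, which changed by -0.44 in NN and -2.08 in TX. At 10 d of salt both were called higher (1.71 and 1.69). The gap between the control leaves of the experiments was not tested.

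The largest rises without overlap at 1 h rested on weaker evidence. HORVU5Hr1G092000 was at 1.98 and 0 FPKM in NN controls and 0 and 8.50 in TX controls, and at 35.1 and 16.6 in NN and 26.2 and 33.8 in TX after 1 h (mean log2 change 3.59, SE 0.87, limma adjusted p = 0.0325). HORVU2Hr1G007840 was at 131 and 11.6 in NN controls and 19.3 and 130 in TX controls, and at 595 and 352 in NN and 374 and 598 in TX after 1 h (mean log2 change 3.35, SE 0.86, limma adjusted p = 0.0396). In both, the controls of a variety differed several-fold from each other. In NN at 72 h the replicates were at 1.55 and 36.8 for HORVU5Hr1G092000 and at 105 and 494 for HORVU2Hr1G007840. For both, the higher NN replicate in controls and at each time was the library with over 50% of the 49-gene set. In TX this held at 72 h, while the TX controls had no such library. At 2 w HORVU5Hr1G092000 was at 20.5 and 10.8 in NN and 0.231 and 0.097 in TX. The call of HORVU2Hr1G007840 was lost in 12 of 25 alternative settings and that of HORVU5Hr1G092000 in 7, over which the adjusted p ran from 0.0192 to 0.148 and from 0.0146 to 0.120.

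The split at 1 h depended on scaling, with 646 lower and 263 higher genes under median-ratio scaling, so that 28.9% in place of 14.2% of calls were higher. That scaling moved the median of all tested genes from -0.05 to 0.06. A single library also moved the count of 960 shared calls by over 1.5 times: it was 363 without replicate 2 of TX at 1 h, 491 without replicate 2 of NN at 1 h, 502 without replicate 2 of the NN controls, and 566 and 573 without each TX control. The number of higher genes alone fell to 25 when the second TX library at 1 h was dropped (338 lower) and to 34 when the first TX control was (532 lower). It was 52 (439 lower) with NN at 1 h reduced to replicate 1, 53 (449 lower) with the NN controls reduced to theirs, 56 (601 lower) with TX at 1 h reduced to replicate 2, and 87 (486 lower) with the TX controls reduced to replicate 1. Falls outnumbered rises in each of these.

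**Figure D1:**
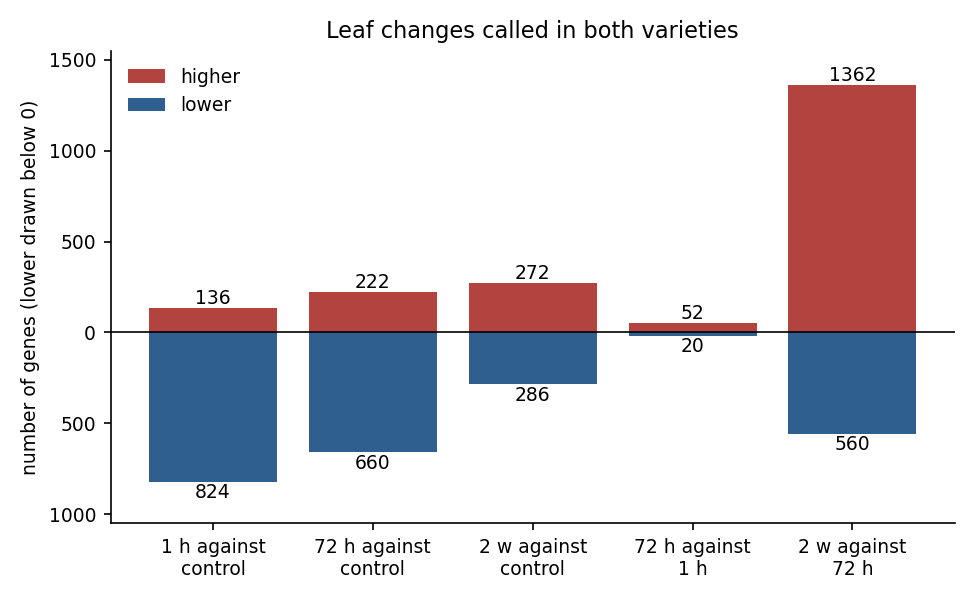
Number of genes called in both varieties (vertical axis; higher above 0, lower drawn below 0) for each time against control and for each step between times. Falls outnumber rises at 1 h (824 and 136) and 72 h (660 and 222), the step from 1 h to 72 h is small (52 and 20), and the step from 72 h to 2 w is the largest (1362 higher and 560 lower).

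After 72 h falls again outnumbered rises, and few genes were called between 1 h and 72 h. Shared calls numbered 660 lower (3.18% of genes tested) and 222 higher (1.07%), with median changes of -1.67 and 1.53. Both times are set against the same controls, so their lists are not compared; the step from 1 h to 72 h was tested directly and gave 52 genes higher (0.251%) and 20 lower (0.0965%). The 824 genes lower at 1 h had medians of 6.61 and 4.92 FPKM in NN and 5.82 and 3.51 for TX at 72 h. Both NN values lay above the NN values at 1 h, while those of TX overlapped. The same 136 genes that were higher at 1 h had medians of 8.77 and 16.6 in NN and 16.7 and 16.5 for TX at 72 h, with replicate 1 of NN below the other 3 libraries. That library held 20.3% ENSRNA rows, while replicate 2 of TX, at 16.5 FPKM, held 19.3%.

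HORVU5Hr1G014170 was the clearest rise at 72 h. It was at 2.13 and 4.91 FPKM in NN controls and 2.28 and 9.51 in TX controls, at 14 and 16.9 in NN and 19.3 and 45.4 for TX at 1 h, and at 188 and 163 in NN and 164 and 209 for TX at 72 h. At 2 w it was back at 1.03 and 1.09 in NN and 0.969 and 7.10 in TX, within or below the range of the controls. The groups do not overlap between control, 1 h and 72 h, and limma called the rise at 1 h (mean log2 change 2.16, SE 0.49, adjusted p = 0.0247), at 72 h (5.17, SE 0.49, adjusted p = 0.000238) and from 1 h to 72 h (3.01, adjusted p = 0.0287). HORVU5Hr1G014170 was also called higher in roots at 1 h and 72 h (1.73 and 1.80) and in salt-treated leaves at 1 h and 24 h (1.89 and 1.81). It was not called in roots at 2 w or in salt-treated leaves at 10 d. HORVU0Hr1G024950 was at 6.84 and 0.432 in NN controls, 1.37 and 1.08 in TX controls, 97.3 and 77.7 in NN at 72 h and 19.2 and 177 in TX at 72 h (4.74, SE 1.09, limma adjusted p = 0.0272). It is one of the 49 genes seen only in these leaves, which were uneven between replicates. Its replicates at 2 w in NN were 1.59 and 145, the second in the library richest in ENSRNA rows, and its call was lost in 8 of 26 alternative settings (adjusted p 0.00383 to 0.124).

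The deepest falls at 72 h were again those of HORVU6Hr1G093520 (1.28 and 0.461 in NN, 0.334 and 1.33 in TX) and HORVU6Hr1G082360 (1.03 and 0.723 in NN, 0.155 and 0.854 in TX). Their 4 values lay in the range of those at 1 h or below it. Neither was called between 1 h and 72 h (0.02 and -0.51 on the log2 scale, limma adjusted p = 0.994 and 0.733).

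The 20 genes that fell from 1 h to 72 h were highly expressed in control leaves of this experiment. None of these falls was called without the 3 libraries richest in ENSRNA rows (12 higher and 0 lower) or when each variety was called on its own (3 higher and 0 lower). Their medians were 99.95 and 117 FPKM in NN controls and 84.9 and 66.3 in TX controls, 94.0 and 85.0 in NN and 65.7 and 54.4 for TX at 1 h, 10.7 and 22.3 in NN and 21.2 and 13.5 for TX at 72 h, and 66.0 and 43.2 in NN and 105 and 97.2 for TX at 2 w. All 4 libraries at 72 h lay below the others; those at 1 h and 72 h chose the set, and the lowest values were in NN replicate 1 and TX replicate 2 at 72 h, both rich in ENSRNA rows. In control roots of the same experiment their median was 0.152 to 0.281 FPKM. In control leaves of the salt experiment, normalized apart, it was also low, at 0.0831 to 0.593 FPKM, and it was 5.85 to 20.6 at 10 d of salt. The 52 genes that rose had medians of 2.19 to 4.27 FPKM at 1 h and 21.1 to 28.8 at 72 h, the libraries that chose the set, and of 4.47 to 7.63 in controls and 4.32 to 6.16 at 2 w.

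Median-ratio scaling gave 518 lower and 290 higher genes at 72 h, with 35.9% of calls higher in place of 25.2%. The count of 882 was 455 without replicate 1 of the TX controls, 494 without replicate 2 of TX at 72 h, 555 without replicate 2 of NN at 72 h, 587 without replicate 2 of the NN controls, and 390 without the 3 libraries richest in ENSRNA rows; the 72 genes of the step from 1 h to 72 h fell to between 17 and 46 without any 1 of the 4 libraries at 72 h, either TX library at 1 h or replicate 2 of NN at 1 h.

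At 2 w the picture had changed, with rises and falls about equal in number: 272 genes were higher (1.31% of those tested) and 286 lower (1.38%), by medians of 1.67 and -1.65. The higher genes were low in control leaves and better expressed in control roots (medians of 2.85 and 13.4 FPKM). Their set median was 3.17 and 2.53 in NN controls and 2.26 and 2.42 in TX controls, between 0.652 and 1.75 in the 8 libraries at 1 h and 72 h, and 12.9 and 12.4 in NN and 12.2 and 10.1 for TX at 2 w. The lower genes were the opposite kind, leaf genes with little expression in roots: 58.0% of them stood at least 10 times higher in control leaves than in control roots, against 8.11% of all genes tested. Their set median was 14.5 and 22.8 in NN controls and 22.5 and 21.0 in TX controls, 12.8 to 19.7 at 1 h and 72 h, and 3.70 and 4.13 in NN and 6.10 and 6.15 for TX at 2 w. Control leaves helped to choose the higher and the lower set, so leaf control levels were partly fixed by that choice, while root levels were not. The 13 leaf-only genes had a median change of -0.64 at 2 w, against 0.06 for all genes tested. Limma called 0 of the 13, with 5 at an unadjusted p below 0.05, as were 4045 of all 20726 genes.

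HORVU4Hr1G005690 and HORVU6Hr1G003300 fell furthest. HORVU4Hr1G005690 was at 111 and 206 FPKM in NN controls and 204 and 402 in TX controls, at 34.8 and 69.5 in NN and 60.4 and 49.2 for TX at 72 h, and at 8.29 and 2.76 in NN and 13.6 and 9.93 for TX at 2 w. It thus declined in stages, with a mean log2 change of -1.99 at 72 h (SE 0.36, adjusted p = 0.0099) and -4.60 at 2 w (SE 0.36, adjusted p = 0.000963) by limma. HORVU6Hr1G003300 was at 95.1 and 353 in NN controls and 179 and 162 in TX controls, and at 2.55 and 11.4 in NN and 11.7 and 12.4 for TX at 2 w (-4.26, SE 0.58, limma adjusted p = 0.0042). At 1 h and 72 h its changes of -1.07 and -1.49 were not called (adjusted p = 0.311 and 0.161).

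HORVU4Hr1G012530 and HORVU3Hr1G112060 led the rises. HORVU4Hr1G012530 was at 8.76 and 2.54 FPKM in NN controls and 8.89 and 2.31 in TX controls. At 2 w it was at 34.3 and 68.1 in NN and 102 and 25.5 in TX (3.13, SE 0.54, limma adjusted p = 0.0116). In control leaves of the salt experiment, normalized apart, it stood at 5.47 and 7.08 in NN and 72.2 and 62.2 in TX. HORVU3Hr1G112060 was at 2.24 and 0.916 in NN controls and 3.0 and 7.89 in TX controls, at 0 to 2.20 in the 8 libraries at 1 h and 72 h, and at 32.2 and 9.60 in NN and 21.7 and 143 for TX at 2 w (3.09, SE 0.62, limma adjusted p = 0.0209). In roots HORVU3Hr1G112060 stood at 36.1 to 325 FPKM in controls, 0.497 to 29.8 at 1 h and 72 h and 110 to 392 at 2 w. There limma called its falls at 1 h and 72 h (-3.84 and -3.93) and not the change at 2 w (1.04, adjusted p = 0.0697), whereas in leaves the changes at 1 h and 72 h were not called (-1.39 and -1.34, adjusted p = 0.206 and 0.237). The calls of these identifiers were lost in 4 and 7 of 26 alternative settings (adjusted p 0.00954 to 0.171 and 0.00916 to 0.238).

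The count of 558 shared calls at 2 w was 244 without replicate 2 of the NN controls, 266 and 329 without replicates 1 and 2 of the TX controls, 366 without the second NN library at 2 w, and 218 without the 3 libraries richest in ENSRNA rows.

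**Figure D2:**
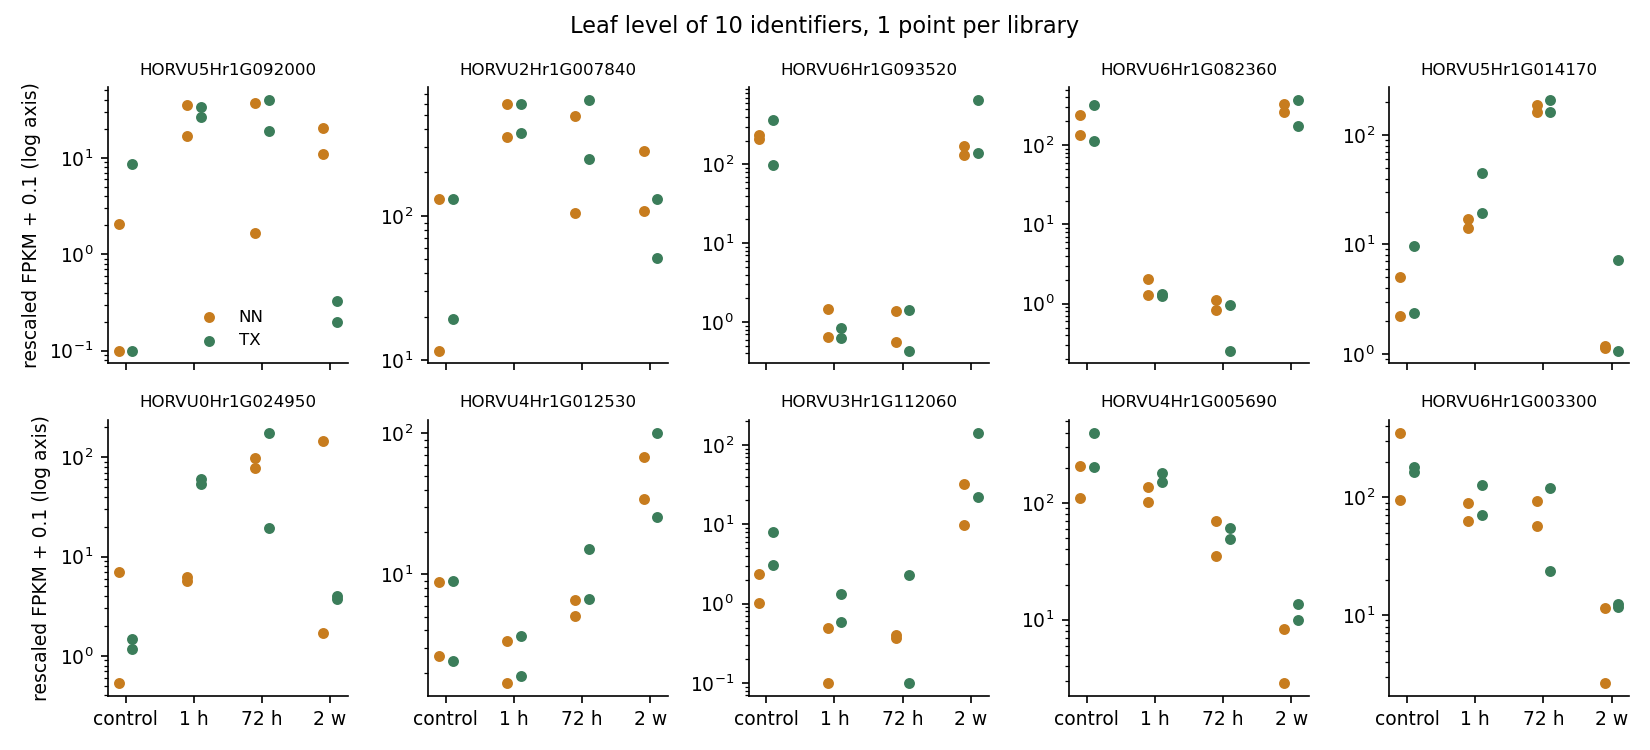
Rescaled FPKM + 0.1 (log axis) of 10 HORVU identifiers in the 16 leaf libraries, 1 point per library, NN in orange and TX in green, by time. HORVU6Hr1G093520 and HORVU6Hr1G082360 drop to near 1 FPKM at 1 h and 72 h and return at 2 w, HORVU5Hr1G014170 peaks at 72 h, and HORVU4Hr1G005690 declines to between 2.76 and 13.6 FPKM at 2 w.

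Of the 5 comparisons, the step from 72 h to 2 w gave the most calls: 1362 genes rose (6.57% of those tested) and 560 fell (2.7%), by medians of 1.81 and -1.67. Leaving out any 1 library gave 1514 to 1984 calls in place of 1922, leaving out the 3 libraries richest in ENSRNA rows, all of them from 72 h or 2 w, gave 1059, and 906 genes were called in NN and in TX each on its own. It uses other libraries than the comparison of 1 h with control, although both draw on the same estimate of each gene's spread. Of the 824 genes that were lower at 1 h, 460 rose from 72 h to 2 w (55.8%, against 6.57% of all genes) and 7 fell, with medians of 1.33 in NN and 2.0 in TX. These 460 were 33.8% of all genes that rose in the step. The 824 genes were more abundant in control leaves than all genes tested (medians of 19.6 and 3.80 FPKM), and changes of low genes are understated. Shares among genes of like level were not taken. Of the 136 genes that were higher at 1 h, 46 fell in the step (33.8%, against 2.7% of all genes) and 2 rose. At 2 w the lower set was at medians of 18.7 and 19.3 FPKM in NN and 20.04 and 32.8 in TX, against 16.1 to 21.7 in controls, and the higher set was at 5.51 and 3.75 in NN and 4.40 and 2.87 in TX, against 2.98 to 6.48 in controls. The values at 2 w thus overlapped the controls in both sets.

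**Figure D3:**
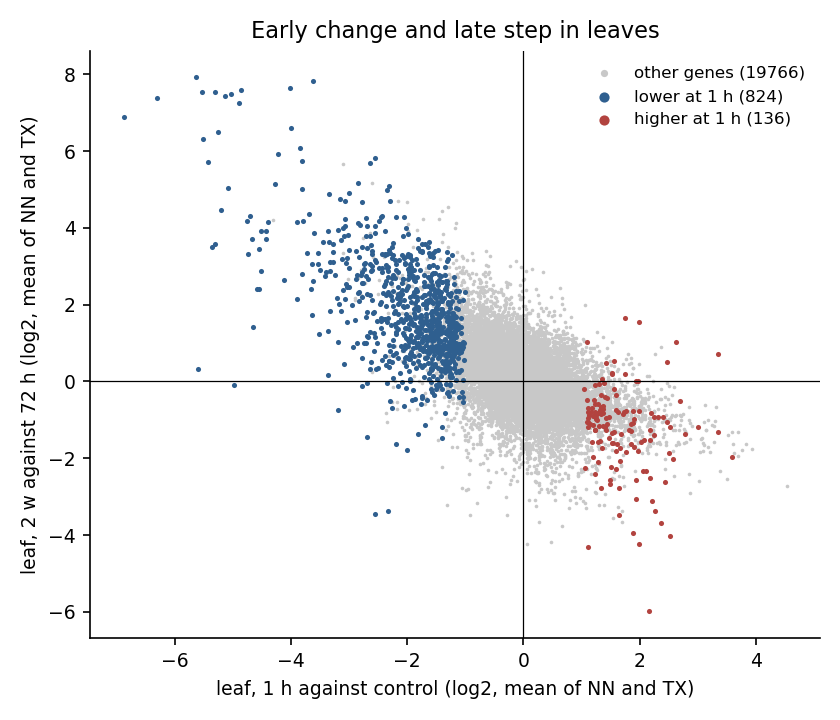
Change of each tested gene at 1 h against control (horizontal axis) and from 72 h to 2 w (vertical axis), both in log2(FPKM + 1) as the mean of NN and TX, with genes lower at 1 h in blue and higher at 1 h in red. Most blue points lie above 0 on the vertical axis and most red points below it, with 460 of 824 and 46 of 136 called in the opposite direction.

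HORVU6Hr1G093520 and HORVU6Hr1G082360 belong to this group. HORVU6Hr1G093520 was back at 132 and 170 FPKM in NN and 138 and 655 for TX at 2 w, and HORVU6Hr1G082360 at 329 and 261 in NN and 173 and 371 in TX. Both rose in the step by limma (6.90 and 7.37 on the log2 scale, adjusted p = 2.55e-05 and 5.77e-06) and neither was called against control at 2 w (0.04 and 0.55, adjusted p = 0.995 and 0.486).

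The share of the 1 h lower genes that rose in the step stayed between 46.9% and 77.1% over 25 alternatives that could give both counts, among them each library left out in turn, against 3.28% to 9.01% of all genes under the same settings. For the 1 h higher genes the share that fell was 18.3% to 50.9%, against 1.09% to 4.04%.

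Roots of the same experiment, in libraries of their own, were compared next. Of the 805 genes lower in leaves at 1 h that could be tested in roots, 447 were also lower there at 1 h (55.5%, against 7.76% of all 18457 genes tested in both tissues) and 7 were higher, and these 447 made up 31.2% of the root falls. Their level moved in roots as it did in leaves: the median of the 824 genes was 22.4 to 25.4 FPKM in the 4 control roots, 6.03 to 8.96 at 1 h, 6.90 to 10.6 at 72 h and 20.5 to 25.2 at 2 w. Of the higher genes, 25 of 100 were also higher in roots (25%, against 7.3%). In control roots too the 824 genes were more abundant than all genes tested (medians of 24.9 and 4.74 FPKM). Genes of like level were not compared. Leaving out 1 leaf library in turn gave 51.7% to 66.1% for the falls and 9.09% to 29.8% for the rises. The lowest shares of the rises were 2 of 22 without replicate 1 of the TX controls, 2 of 16 (12.5%) without replicate 2 of TX at 1 h and 18 of 119 (15.1%) without replicate 1 of the NN controls. Of the 4 rises called in each variety on its own, 0 were higher in roots. HORVU6Hr1G093520 fell in roots by a mean log2 change of -4.49 at 1 h (SE 0.54, limma adjusted p = 6.7e-05), from 355 and 422 FPKM in NN and 1244 and 700.2 in TX to between 18.1 and 32.9.

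At 72 h, 302 of 632 leaf falls were also root falls (47.8%, against 11.4%) and 49 of 185 rises also root rises (26.5%, against 6.5%). At 2 w, 72 of 259 leaf rises were also root rises (27.8%, against 3.64%). Of the 286 leaf falls, 201 could be tested in roots. There 23 were lower (11.4%, against 4.75%) and 12 higher (5.97%, against 3.64%). The median root change of these leaf falls was -0.19, against -0.21 for all genes, so as a set they did not shift down in roots. The difference between leaf rises and leaf falls was not tested. In the step from 72 h to 2 w, 578 of 1320 rises (43.8%, against 11.4%) and 106 of 402 falls (26.4%, against 10.6%) were shared with roots. Median-ratio scaling of the roots gave 451 of 805 falls at 1 h (56.0%, against 8.002%) and 287 of 632 at 72 h (45.4%, against 10.7%). At 2 w it gave 94 of 259 rises (36.3%, against 6.20%) and 16 of 202 falls (7.92%, against 1.91%), with 17 leaf falls higher in roots.

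**Figure D4:**
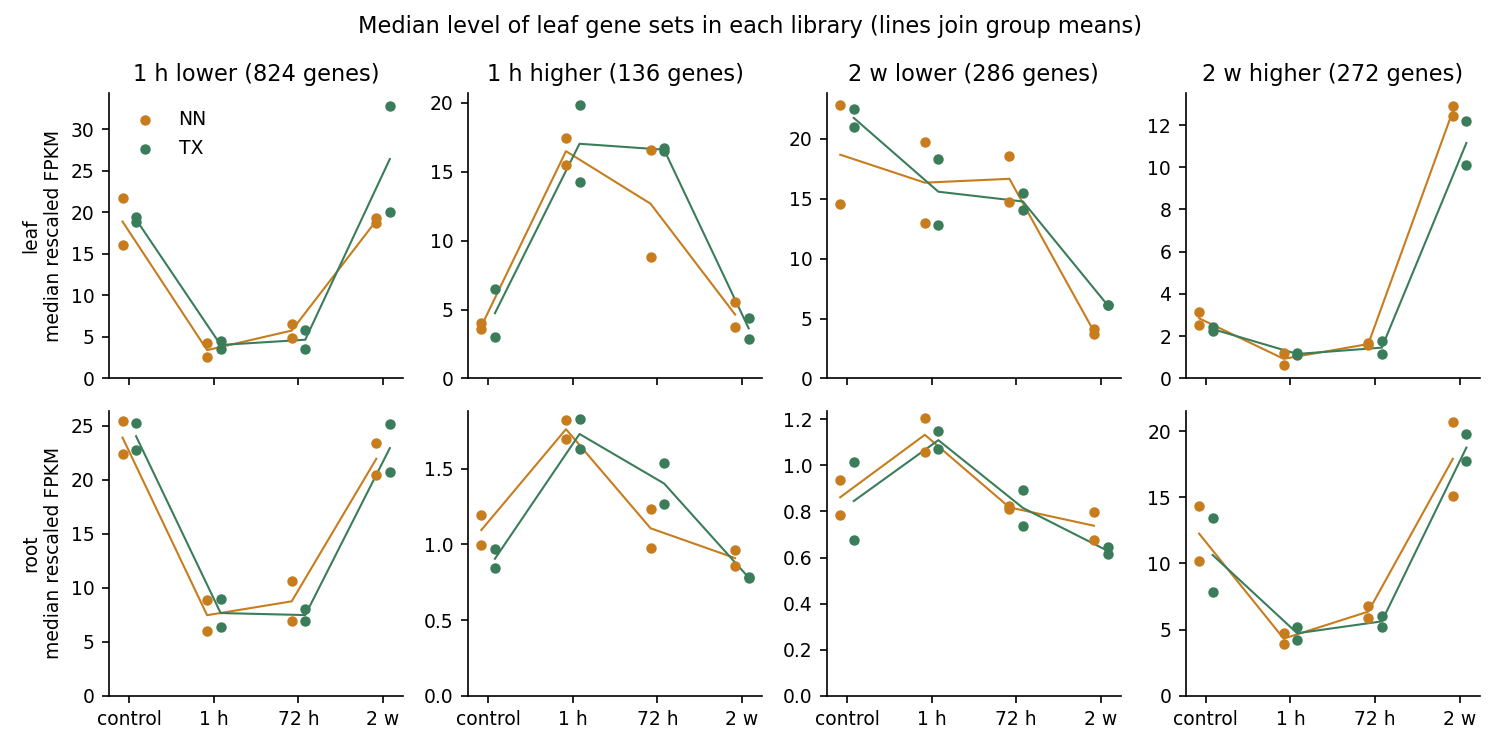
Median rescaled FPKM of 4 leaf gene sets in each library, 1 point per library with lines through group means, in leaves (upper row) and roots (lower row), NN in orange and TX in green; the sets were chosen on the leaf values, so only the root panels are separate from that choice. Genes lower at 1 h (824) are low at 1 h and 72 h and back at 2 w in both tissues, whereas genes lower at 2 w (286) stay near 1 FPKM in roots throughout.

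Leaves of the salt experiment, which had its own 0 h controls and was also sampled at 1 h, served as a second comparison. Its table was normalized apart, so changes were taken only within it and no test ran across the experiments. Of 821 genes lower in flooded leaves at 1 h, 48 were lower after 1 h of salt (5.85%, against 2.22% of 18370 genes tested in both) and 15 higher, with a median change of -0.33 against -0.21 for all genes. The count was 98 (11.9%, against 3.28%) without replicate 1 of the TX salt controls, which correlated with its partner at r = 0.905 across genes, and 57 (6.94%, against 2.13%) without replicate 1 of NN at 1 h of salt, in which 13 of the 32 genes of TX roots alone reached 0.5 FPKM, against 1 in its partner. Under median-ratio scaling of the salt leaves it was 28 (3.41%, against 0.790%), with 22 higher. Of the higher genes, 14 of 127 were higher after salt (11.02%, against 1.32%). Of 214 genes higher at 72 h of flooding, 23 were higher and 23 lower at 24 h of salt (10.7% each, against 2.24% and 3.10%), and of 657 lower genes 36 were higher and 23 lower (5.48% and 3.50%).

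At the latest times the salt comparison was with 10 d of treatment. Of 266 genes higher at 2 w of flooding, 88 were higher at 10 d of salt (33.1%, against 7.95%) and 3 lower, and of 286 lower genes 57 were lower (19.9%, against 6.48%). Of the genes that rose from 72 h to 2 w, 513 of 1342 rose from 24 h to 10 d in salt-treated leaves (38.2%, against 11.9%), and 215 of 554 falls were shared (38.8%, against 5.96%). Plants were also older at the later times of both experiments, and age cannot be told apart from either treatment.

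**Figure D5:**
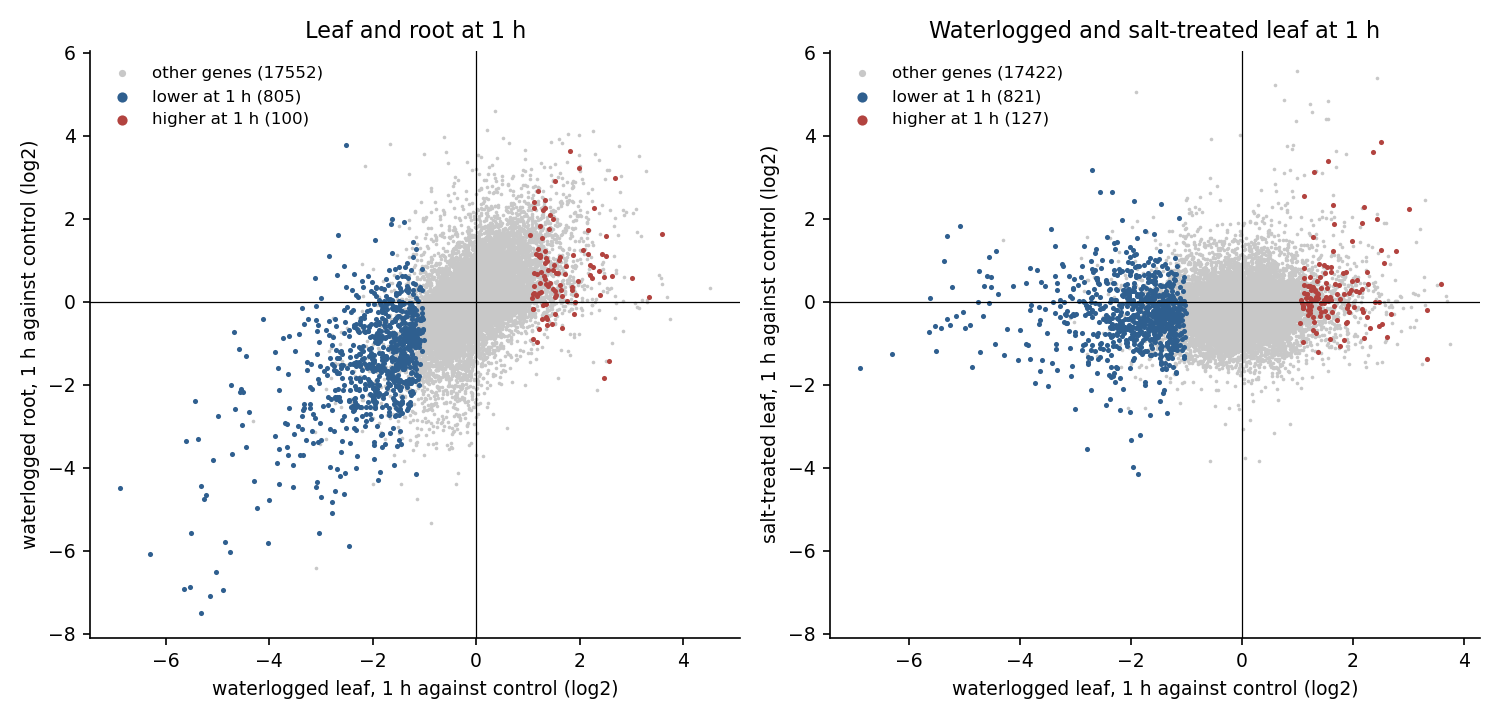
Change of each tested gene in flooded leaves at 1 h against control (horizontal axes) and at 1 h against control in flooded roots (left) or salt-treated leaves (right), as log2(FPKM + 1) means of NN and TX; blue and red mark genes lower and higher in flooded leaves. In roots 447 of 805 blue points were called lower, and in salt-treated leaves 48 of 821.

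The last question was whether the varieties differed. Tested apart, 203 genes were called in NN (0.979% of those tested) and 173 in TX (0.835%) at 1 h, 187 (0.902%) and 387 (1.87%) at 72 h, and 164 (0.791%) and 58 (0.28%) at 2 w. Where a gene was called in one variety its change in the other went the same way in nearly all cases. At 1 h the change had the same sign in TX for 188 of the 191 genes lower in NN, with a median of -2.20, and 109 were called in both (57.1% of the NN list and 68.6% of the TX list). At 72 h, 127 falls were called in both (87.0% of the NN list, 42.2% of the TX list) and 30 rises (73.2% and 34.9%). At 2 w, 19 rises (22.9% and 45.2%) and 9 falls (11.1% and 56.2%) were called in both. No gene was called in opposite directions at any time. NN and TX used separate libraries here but one estimate of each gene's spread, and their plants may have shared pots.

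The difference between the responses was tested directly as TX minus NN, and limma called 0 of 20726 genes at 1 h, 72 h and 2 w. At an unadjusted p below 0.05 there were 172, 193 and 467 of the 20726 genes. Each is a share well below 0.05, the share such a cut-off passes when no gene differs. The p-values of this contrast thus ran too high, and the reason was not tested. These low counts therefore do not show that the varieties respond alike. For the mean of both varieties the counts were 4772, 4509 and 4045. With 2 libraries per group the differences had wide errors: for HORVU6Hr1G093520 at 1 h the difference was 0.00 with an SE of 1.01, and for HORVU6Hr1G003300 at 2 w it was 1.08 with an SE of 1.16. Smaller differences between NN and TX were not detectable with these replicates. Leaving out replicate 2 of NN at 2 w gave 11 genes that differed at 2 w.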

How the data were processed

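RNA-seq of 16 waterlogging leaf libraries was analysed, with 16 waterlogging root and 16 salt leaf libraries for comparison. The authors deposited FPKM values per gene in a workbook for each experiment, made from strand-marked poly(A) libraries. Tools named in the submitters' processing notes are featureCounts 1.5.0, HISAT and HISAT2. As to the genome build, it is not given in sources used here. The authors' methods state 3 biological replicates, while 2 libraries per group were labelled. Of 43050 rows in the waterlogging table, 39734 HORVU rows were used and 3121 ENSRNA rows and 195 others left out. The other sheets hold 80 per-sample columns that repeat mapped values and 2 row sums, and were not used.

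HORVU rows were rescaled to equal totals and log2(FPKM + 1) was fitted with limma 3.58.1 (R 4.3.3, trended empirical Bayes, 8 group means, 8 residual degrees of freedom) for genes at 0.5 FPKM or more in at least 2 libraries. P-values were adjusted by Benjamini-Hochberg over all genes tested. Fold changes of low genes are understated by the pseudocount of 1. Roots and salt leaves were fitted apart in the same way. The fit was tested on simulated data. FPKM hold no counts, so total depth is unknown and only relative depth was read from low values.

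The comparisons and lists were chosen with earlier results of these data known. Identifiers named are, per time, the 2 that rose and the 2 that fell with the largest smaller change of both varieties among shared calls without overlap of the 4 flooded and 4 control libraries. HORVU2Hr1G080490, the HvMADS14 gene of the study, is given in the closing section. Alternatives were a pseudocount of 0.1, no filter, all rows as deposited without rescaling, median-ratio scaling, the replicate number as a block, array weights, leaving out each library, the 3 libraries richest in ENSRNA rows or the 7 libraries that carry the 49 leaf-only genes, and a call in each variety on its own. Leaving out the most abundant row, and other scaling or libraries in the root and salt fits, were added after seeing the data.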

Additional observations from a re-analysis of the deposited data

Results flagged for a closer look

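Rows with ENSRNA identifiers, which only the alternative with all rows as deposited used, took a larger share of the summed FPKM in 8 of the 12 flooded leaf libraries than in any of the 4 controls, where the highest share was 3.14%. The shares were 36.1% in replicate 2 of NN at 2 w, 20.3% and 10.8% in replicates 1 and 2 of NN at 72 h, 3.31% and 19.3% in replicates 1 and 2 of TX at 72 h, 11.5% and 5.93% in replicates 1 and 2 of TX at 1 h, and 4.07% in replicate 2 of TX at 2 w. Both NN libraries at 1 h, replicate 1 of NN at 2 w and replicate 1 of TX at 2 w lay within the range of the controls. The most abundant HORVU row, HORVU2Hr1G121630, took 16.5%, 13.2% and 9.44% of the HORVU FPKM in the 3 libraries with the highest ENSRNA shares, and 0.256% to 5.20% in the others. The same 3 libraries had the lowest relative depth, 0.297, 0.475 and 0.484. Their part in the results was not tested beyond leaving these libraries or this row out.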

How the results depend on the processing

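Every count kept its place within 1.5 times of the main value except as follows. A pseudocount of 0.1 gave 85 NN and 7 TX calls at 2 w. No filter gave 1 and 3 genes for TX minus NN at 72 h and 2 w. Median-ratio scaling gave 72 and 77 NN calls at 1 h and 2 w. Array weights gave 8 NN and 1312 TX calls at 1 h and 46 and 243 at 2 w. Leaving out the 3 libraries richest in ENSRNA rows gave 46, 13 and 57 NN calls and 76, 27 and 1 TX calls over the 3 times, 390 and 218 shared calls at 72 h and 2 w, 12 and 1059 in the steps to 72 h and to 2 w, and 1 for TX minus NN at 2 w. Calling each variety on its own gave 113, 157 and 28 shared calls, and 3 and 906 in the steps. Without the 7 libraries carrying the leaf-only set, limma had 2 residual degrees of freedom and called 0 genes for NN at 1 h, NN, TX and shared at 72 h and 2 w and the last step, with 2848, 1650, 3072, 3895, 2490, 2056, 3583 and 5371 at an unadjusted p below 0.05; both TX libraries at 1 h were left out, so TX at 1 h gave no value. Leaving out the most abundant row moved no count by over 1.5 times.

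Replicate numbers did not pair libraries consistently: same-numbered deviations correlated above 0.1 in 11 of 28 pairs of groups (r = -0.69 to 0.67). A strong negative value means that replicate 1 of a group varied like replicate 2 of another, as in NN and TX at 72 h (r = -0.69). A block on the number cannot take out variation shared across numbers. With the number as a replicate block, calls were 101 in NN and 27 in TX at 2 w, and shared counts were 830, 797 and 468, of which 825, 790 and 465 were the same genes as without it.

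Leaving out 1 library, whose partner is then assumed to vary like the other groups, gave 0 to 267, 54 to 194 and 0 to 170 NN calls, 0 to 177, 68 to 421 and 1 to 129 TX calls, 363 to 1036, 455 to 918 and 244 to 556 shared calls, 0 to 1, 0 to 1 and 0 to 11 for TX minus NN, and 17 to 73 and 1514 to 1984 in the steps. The falls of HORVU6Hr1G093520 and HORVU6Hr1G082360 at 1 h held in all 25 settings. The causes of these shifts were not tested.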

Other observations

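HORVU2Hr1G080490, named HvMADS14 in the study and one of the MADS-box transcription factors, was between 0 and 0.0099 FPKM in the 16 leaf libraries and above 0 in 6 of them, so it did not pass the filter on low values.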
